A study of Mus musculus with 5 samples.

Results

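ESC-like cells recovered from a teratoma after heterologous injection were compared with the parental embryonic stem cells (ESCs) that had been injected. The comparison covered 19938 genes, each read from a probe set that names exactly 1 gene symbol, and used 2 of the 5 arrays of the series, 1 for each population. All probe sets of this kind were included, so the genes were not picked by their values, and a gene with several probe sets was represented by the one with the highest mean over the 5 arrays. The question addressed was how far the transcriptome of ESCs differs after growth in a recipient of another genetic background and renewed culture.

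Parental ESCs were of the B6CBAF1 hybrid background (a C57BL/6 mother and a CBA/ca father) and had not been in an animal. For the heterologous group they were injected under the skin of B6D2F1 recipients (C57BL/6 by DBA2), and the tumor that formed was dissociated and cultured to give the ESC-like cells. The other 3 arrays give context: ESC-like cells after homologous injection, for which the recipient was B6CBAF1 like the ESCs, and batch 1 and batch 2 of ESC-like cells after co-injection, in which B6D2F1 embryonic fibroblasts went into B6D2F1 recipients together with the ESCs. All cells, the parental ESCs included, were cultured on a layer of mitotically inactivated ICR mouse embryonic fibroblasts in medium with serum and leukemia inhibitory factor (LIF). The labels give the same LIF concentration for all cells, whereas the methods of the study give a higher one for the cells from teratomas. Its part in the differences was not tested.

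Each array measured bulk RNA of a culture that can contain feeder fibroblasts and, after teratoma dissociation, cells of the host or differentiated progeny of the ESCs. A lower value can therefore come from fewer cells of a type or from less RNA per cell, and these cannot be told apart. Neither the parental nor the heterologous population has a second array, and the heterologous cells came from a single teratoma. No test was made and no p-value is given. Differences are log2 values of the heterologous array minus those of the parental array, and a difference of 1 is 2-fold. The co-injection pair is the only repeat of a condition. Its 2 arrays differed by a median of 0.067 over all genes, by less than 0.25 at 95% of them and by less than 0.36 at 99%, and 1 gene lay over 2-fold apart.

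Mouse ESCs kept in LIF and serum express a core of pluripotency factors, led by Oct4, Sox2 and Nanog, and a more labile layer of naive factors such as Klf4, Esrrb and Tfcp2l1, which is lost first when cells move towards the epiblast or differentiate. They grow as compact epithelial colonies joined by E-cadherin. Fibroblasts and other mesenchymal cells instead lay down collagens, proteoglycans and matrix glycoproteins, carry caveolae, and both secrete and respond to TGF-beta, insulin-like growth factors and noncanonical Wnt ligands. A teratoma contains derivatives of all germ layers, so each of these programs can be present in cells taken from it.

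The heterologous array lay over 2-fold above the parental array at 794 genes (3.98% of those compared) and over 2-fold below it at 389 (1.95%). Of the higher genes 168 were over 4-fold higher, and of the lower genes 51 were over 4-fold lower. The median difference over all genes was -0.04, and the medians of the 5 arrays over all probe sets lay between 7.48 and 7.54. Values ran from 2.77 to 13.97, and 342 of the higher genes (43.1%) were below the median of all values, 7.49, in parental ESCs, whereas 133 of the lower genes (34.2%) were below it in the heterologous array. No measure of background was used, so folds of such genes are not shown to rest on values above background. The same rule gave 290 higher (1.45%) and 319 lower genes (1.6%) for the homologous array and 129 higher (0.647%) and 287 lower genes (1.44%) for the co-injection mean. These comparisons share the parental array.

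**Figure D1:**
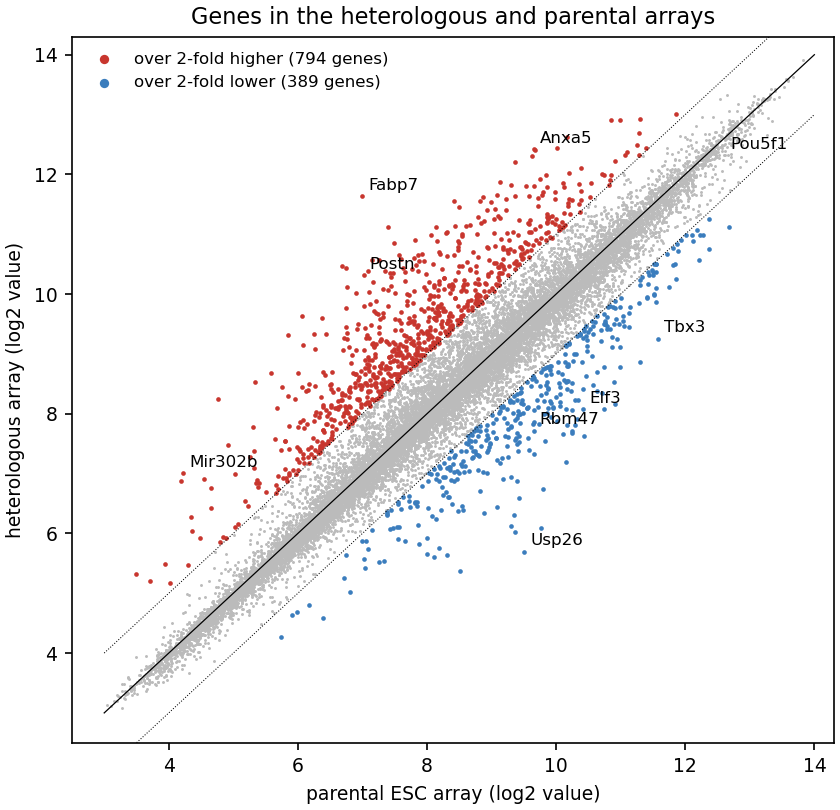
Each point is a gene, with its log2 value in the parental ESC array on the horizontal axis and in the heterologous array on the vertical axis; the solid line marks equal values and the dotted lines 2-fold. The 794 genes over 2-fold higher and 389 over 2-fold lower are coloured, Pou5f1 (Oct4) lies near the line of equal values, and Fabp7 is the gene farthest above it.

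The higher and the lower genes differed in which array stood apart. Among the 794 higher genes the heterologous array had the highest value of the 5 arrays at 741 (93.3%), and at 374 (47.1%) it lay over 2-fold above every other array. Among the 389 lower genes it had the lowest value at 279 (71.7%), but it lay over 2-fold below every other array at only 33 (8.48%). At 173 of the lower genes (44.5%) it was the parental array that lay over 2-fold above all 4 ESC-like arrays, and at 68 of the higher genes (8.56%) the parental array lay over 2-fold below all 4. Thus the genes that set the heterologous cells apart from all other arrays were mostly high in them, and much of the lower side was shared with the other cells from teratomas.

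Core pluripotency genes remained at high values, so the label of ESC-like cells is borne out by these markers. Pou5f1, which encodes Oct4, had a log2 value of 12.60 in parental ESCs, 12.32 in the heterologous array, 12.29 in the homologous array, and 12.40 and 12.36 in the co-injection arrays. Tdgf1 (Cripto), a Nodal co-receptor, had 12.63 in parental and 12.64 in heterologous cells, and Nanog had 12.94 and 12.22. Of 14 core genes none was over 2-fold higher and 3 were lower (median -0.36), beside 3.98% and 1.95% of all genes. Those 3 were Zfp42 (Rex1) at -1.63, the Ras family gene Eras at -1.26 and the growth factor gene Fgf4 at -1.11. Lin28a, which encodes an inhibitor of let-7 maturation, lay at 0.41. Summed on the linear scale, the 14 genes had 53749 units in the heterologous array, 69631 in the parental array and 58840 to 60112 in the other 3.

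Naive pluripotency was the list farthest below parental ESCs of the 53 examined. Of 15 genes 10 were over 2-fold lower and none was over 2-fold higher, and the median difference was -1.25, against a median of -0.04 over all genes and 1.95% of all genes over 2-fold lower. Prdm14, a repressor of differentiation and of de novo methylation, had 10.24 in parental ESCs and 7.71 in the heterologous array, 5.78-fold less, and 8.17, 8.37 and 8.48 in the homologous and co-injection arrays. Tbx3 had 11.58 in parental ESCs and 9.25 in heterologous cells, yet it was lower still, at 8.54, in homologous cells. Tfcp2l1, a factor downstream of LIF, differed by -1.64, Klf4 by -1.43, Klf2 by -1.25, the orphan receptor gene Esrrb by -1.18 and Nr5a2 by -1.25. For Klf4, Klf2, Esrrb and Tfcp2l1 the heterologous value was the lowest of the 5 arrays. The same list had a median of -0.89 after homologous injection and -0.43 for the co-injection mean, with 6 and 3 genes over 2-fold lower. Of 20 genes of the LIF and STAT3 pathway, those over 2-fold lower were Tfcp2l1, Klf4 and Pim3 (-1.02), and the 1 over 2-fold higher was Osmr (3.05), the receptor of oncostatin M, which shares the subunit gp130 with the LIF receptor.

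Pecam1, an adhesion receptor found on naive ESCs as well as on endothelium, stood apart in the heterologous cells alone. Its log2 value was 9.43 in parental ESCs, 9.36 in homologous cells and 9.02 and 9.20 after co-injection, but 7.99 in heterologous cells. Dppa3 (Stella) had 7.02 in parental ESCs and 6.82 in heterologous cells, against 8.97 in homologous cells and 8.85 and 8.71 after co-injection, so this naive gene was high only in the other cells from teratomas.

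Genes of the primed epiblast did not move as a group. Of 15 genes 3 were over 2-fold higher and 2 lower (median 0.00), beside 3.98% and 1.95% of all genes. The Wnt ligand gene Wnt8a had 7.32 in parental ESCs and 9.62 in heterologous cells, a difference of 2.30, with 7.36 in homologous cells and 8.05 and 8.03 after co-injection. Zic2 differed by 1.24 and the Nodal antagonist gene Lefty1 by 1.19. Otx2, a homeobox gene required for the primed state and the anterior neural plate, went the other way: 9.25 in parental ESCs, 9.73 in homologous cells, 9.60 and 9.30 after co-injection and 7.75 in heterologous cells. Foxd3, at -1.39, was low in all cells from teratomas. Fgf5 (0.28) and Pou3f1 (-0.04), further markers of this state, lay within 2-fold.

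Genes of fibroblasts and of the matrix they secrete were examined in 4 overlapping lists, which together held 52 of the 794 higher genes (6.55%) among 103 measured members. Of 25 fibroblast genes 14 were over 2-fold higher and none was over 2-fold lower, beside 3.98% and 1.95% of all genes. The median was 1.10 against -0.04 over all genes, and all 25 had their highest value of the 5 arrays in heterologous cells. Postn (periostin), a matrix protein of connective tissue, had 7.02 in parental ESCs and 10.31 in heterologous cells, 9.82-fold more. Its values in homologous cells and after co-injection were 7.76, 6.16 and 6.16. Dcn (decorin), a small proteoglycan that binds collagen fibrils, had 7.39 in parental ESCs, 7.31 in homologous, 10.06 in heterologous and 6.71 and 6.44 in co-injection cells. For both genes the heterologous array lay over 2-fold above each of the other 4. The type I collagen genes Col1a1 and Col1a2 differed by 2.33 and 1.70, the platelet-derived growth factor receptor genes Pdgfrb and Pdgfra by 3.10 and 1.10, and the surface antigen gene Thy1 by 1.64. Vim (vimentin) and Fn1 (fibronectin), which ESC cultures already carried at 12.65 and 12.55, lay within 2-fold at 0.68 and 0.72.

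The summed level of the 25 fibroblast genes on the linear scale was 53811 in the heterologous array, 23509 in the parental array, 27541 in the homologous array and 20909 and 20890 in the co-injection arrays. The feeder fibroblasts are a source common to all 5 cultures. What part feeder, host or differentiated cells had in the higher values was not tested. Xist, which is transcribed from the inactive X chromosome of female cells, had 6.80 in parental ESCs and 8.41 in heterologous cells, against 6.79 in homologous cells and 6.34 and 6.29 after co-injection. The Y-linked translation factor gene Eif2s3y had 5.34 in parental ESCs, 7.88 in homologous, 8.54 in heterologous and 7.86 and 7.82 in co-injection cells, so the parental array stood apart from all cells from teratomas. The part of either in the other differences was not tested.

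Matrix genes were also higher in 3 lists that share 5, 2 and 1 members with the fibroblast list. Of 30 matrix glycoprotein genes 13 were over 2-fold higher and none lower (median 0.87), of 24 proteoglycan genes 10 and none (0.90), and of 32 genes of matrix enzymes and their inhibitors 19 and none (1.15), beside 3.98% of all genes over 2-fold higher. Without the shared members the counts were 11 of 25, 9 of 22 and 18 of 31, with none lower and medians of 0.94, 0.90 and 1.13. Tnc (tenascin C), a glycoprotein of embryonic and healing tissue, had 10.02 in parental ESCs, 12.44 in heterologous cells, 10.32 in homologous cells and 7.17 and 7.27 after co-injection. Lox (lysyl oxidase), which cross-links collagen and elastin, had 8.86, 11.62, 9.32, 6.79 and 6.85 in the same order. For both genes the heterologous value was the highest and the co-injection values were the lowest, below those of parental ESCs. The 13 glycoprotein genes were led by Postn, Thbs2 (3.29), the X-linked Srpx2 (3.11), Edil3 (3.09), an integrin ligand, and Ccdc80 (3.08).

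Of 3 tissue inhibitors of metalloproteinases in the list, 2 were over 2-fold higher, and Timp1 lay at 0.96. Timp2 had 8.42 in parental ESCs, 9.81 in homologous, 11.55 in heterologous and 7.65 and 7.79 in co-injection cells. Timp3 had 9.37, 9.73, 12.21, 8.76 and 8.68 in the same order. Of the proteinases they restrain, Mmp2 differed by 2.70 and the membrane-bound Mmp14 by 1.78, while Mmp9 and Mmp11 lay at -0.20 and -0.31. Among enzymes of collagen maturation the largest differences beside Lox were those of Loxl3 (2.41), the procollagen proteinase gene Bmp1 (2.36), the prolyl hydroxylase gene P4ha3 (2.26) and Loxl1 (2.24). Of the same class, P4ha1 (0.99), P4ha2 (0.71), Plod3 (0.65), Plod1 (0.43), Loxl4 (0.36) and Pcolce (0.25) did not pass 2-fold. Among proteoglycans the largest differences were those of Aspn (asporin, 3.48), Dcn, Ogn (osteoglycin, 2.57) and Vcan (versican, 2.49). Has2, a hyaluronan synthase outside these lists, differed by 3.32.

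Basement membrane genes did not share this shift. Of 18 genes, Lama4 (1.34) and Lamb1 (1.24) were over 2-fold higher and Lama1 (-1.03), a laminin chain of the early embryo, was over 2-fold lower, with a median of 0.05. Integrins and other matrix receptors had 9 of 21 genes over 2-fold higher and 1 lower (median 0.81), beside 3.98% and 1.95% of all genes. Itgb8, whose product activates latent TGF-beta, had 6.77 in parental ESCs, 7.05 in homologous, 10.11 in heterologous and 7.36 and 7.36 in co-injection cells. The collagen-binding Itga11 differed by 2.67, the beta 1 subunit gene Itgb1 by 1.33 and the hyaluronan receptor gene Cd44 by 1.79, while Itga9 differed by -1.84 and was low in all cells from teratomas. Itgb8 lies on chromosome 12, where genes as a group were shifted upward in heterologous cells.

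**Figure D2:**
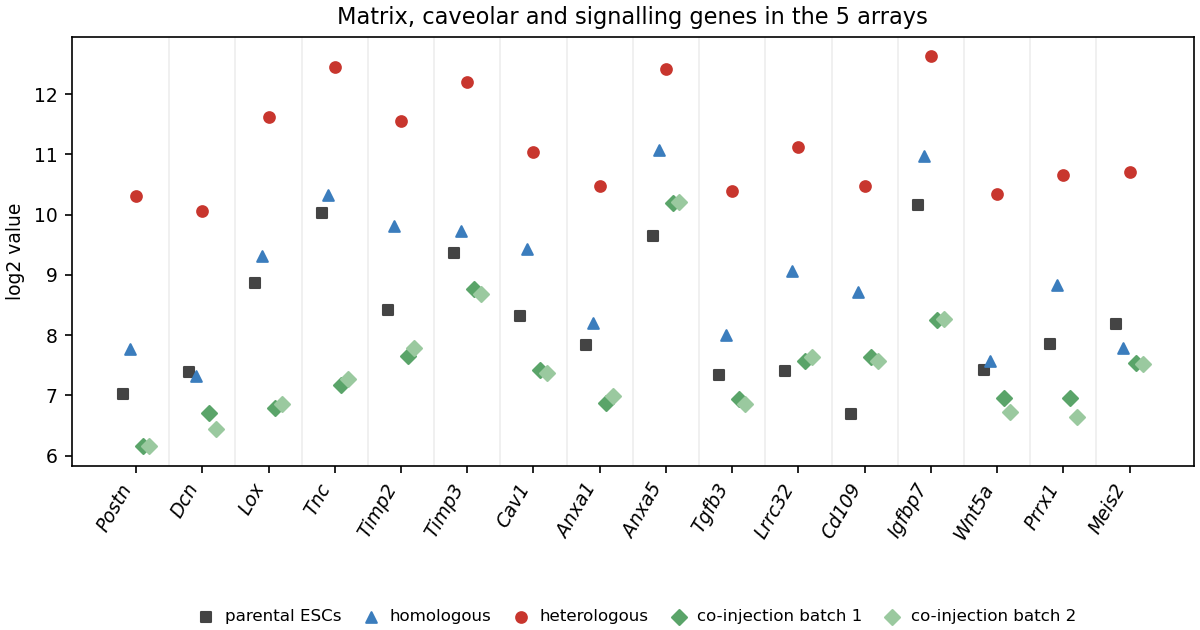
The log2 values of 16 genes of the matrix, of caveolae and of signalling are shown in each of the 5 arrays, with 1 point an array and no error bar, since parental, homologous and heterologous cells had 1 array each. The genes were drawn from those over 2-fold higher in heterologous cells, so the high heterologous values here follow from the choice. The heterologous array has the highest value for every gene shown, for example 12.44 for Tnc against 7.17 and 7.27 in the co-injection arrays.

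The list of caveolae and membrane scaffolds had the highest median of the 53 lists examined, 1.72. Beside genes of caveolae it holds annexin, S100, Ahnak and galectin genes, so the median is not one of caveolae alone. Of 20 genes 15 were over 2-fold higher and 1 lower, beside 3.98% and 1.95% of all genes. Of the 15, 13 lay over 2-fold above every other array. Cav1 (caveolin 1), the main coat protein, had 8.31 in parental ESCs, 9.43 in homologous, 11.03 in heterologous and 7.41 and 7.37 in co-injection cells, and its partner gene Cav2 differed by 2.20. Annexins bind membranes when calcium is present, and those over 2-fold higher were Anxa5 (2.77), Anxa1 (2.65), Anxa8 (2.14), Anxa3 (2.01) and Anxa2 (1.70). Anxa6, also in the list, lay within 2-fold. Ehd2, an ATPase at the neck of caveolae, differed by 2.64 and the cavin genes Cavin2 and Cavin1 by 1.84 and 1.53. The gene over 2-fold lower was Lgals3 (galectin 3) at -1.24, which also lay below parental ESCs in the other 3 arrays. The homologous array had a median of 0.37 for this list and the co-injection mean -0.14.

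Contractile genes were higher in part, and several markers of mature smooth muscle were not among them. Of 18 smooth muscle and pericyte genes 7 were over 2-fold higher and none lower (median 0.66), beside 3.98% and 1.95% of all genes. Tagln (transgelin) had 9.03 in parental ESCs, 9.40 in homologous, 11.26 in heterologous and 9.35 and 9.09 in co-injection cells, and Acta2, smooth muscle alpha-actin, had 12.92 in heterologous cells, 1.92 above parental ESCs, with 11.55 in homologous cells and 9.53 and 9.51 after co-injection. The regulatory myosin light chain gene Myl9 differed by 2.13, Cnn1 (calponin) by 2.03, Cald1 (caldesmon) by 1.99, Tpm2 by 1.76 and Actg2 by 1.43. Myh11, the myosin heavy chain of mature smooth muscle, lay at 0.08, Smtn (smoothelin) at -0.11, Lmod1 at -0.05 and the pericyte gene Rgs5 at 0.19. Of 25 YAP and serum response targets 8 were over 2-fold higher and none lower (median 0.61), among them Axl (1.89), Tpm1 (1.87) and the AP-1 subunit genes Fosl1 (1.70), Jun (1.49) and Fosl2 (1.46). The immediate early genes Egr1, Fos and Ier2 of this list lay at 0.93, 0.36 and 0.06.

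The CArG box is the sequence that serum response factor binds in front of many contractile genes. Promoter windows from 250 bases before to 50 after the start were taken from RefSeq, build GRCm38.p6. Of 16 windows of the smooth muscle and pericyte list, 1 held a CArG box, that of Myl9, which is shown here because the gene is one of the 7 over 2-fold higher. The stretch is chr2:156775258-156775357 on the forward strand, 100 bases long and wholly upstream of the start, and the capitals mark the box, whose first base lies 161 bases before the start.
Myl9: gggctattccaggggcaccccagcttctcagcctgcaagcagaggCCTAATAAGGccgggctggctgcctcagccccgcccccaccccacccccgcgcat
On either strand, a CArG box was present in 16 of 736 windows of higher genes (2.17%), in 2 of 368 windows of lower genes (0.543%) and in 1.41% of the 19115 windows of all measured genes. The site GGAATG, which TEAD factors bind, was in 16.2% of windows of higher genes, 10.9% of lower genes and 13.2% of all. The TATA box TATAAA was in 11.3%, 10.1% and 11.5%, the AP-1 site TGANTCA in 7.2%, 6.52% and 6.88%, and the octamer ATGCAAAT in 1.36%, 1.9% and 1.59%. These are matches of letters and not sites shown to be bound. The shares differ by a few percentage points at most.

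Of 25 genes of the TGF-beta pathway list 11 were over 2-fold higher and none lower (median 0.81), beside 3.98% and 1.95% of all genes. The list also holds Ltbr, a lymphotoxin receptor gene outside this pathway, which is not among the 11. Of the 11, 10 lay over 2-fold above every other array. Among ligands, Tgfb3 had 7.34 in parental ESCs, 10.39 in heterologous cells and 6.94 and 6.85 after co-injection, with the homologous array 0.66 above parental ESCs, Tgfb2 differed by 2.57 and Tgfb1 by 1.05. Inhba, a subunit of activin A, had 9.58 in parental ESCs and 11.64 in heterologous cells, with 9.24 in homologous cells and 7.49 and 7.56 after co-injection. Proteins that hold or modulate the ligands differed most. Lrrc32 (GARP), which tethers latent TGF-beta to the cell surface, had 7.40 in parental and 11.13 in heterologous cells, and Cd109, a co-receptor that restrains TGF-beta signalling, had 6.68 and 10.47. Homologous cells, at 9.07 for Lrrc32 and 8.71 for Cd109, were also over 2-fold above parental ESCs. Co-injection cells had 7.58 and 7.64 for Lrrc32 and 7.63 and 7.57 for Cd109. Ltbp1, Ltbp2 and Ltbp3 differed by 2.17, 1.82 and 1.53, the activin antagonist gene Fst (follistatin) by 2.01 and the receptor gene Tgfbr2 by 1.43. The other receptor genes Tgfbr3, Eng, Tgfbr1 and Acvrl1 lay at 0.60, 0.49, 0.27 and 0.23, the latency gene Ltbp4 at -0.21 and the activin subunit gene Inhbb at -0.96. Of the Smad genes in the list, which carry the signal to the nucleus, Smad3 differed most at 0.88 and none was over 2-fold different. Tgfb3 and Ltbp2 lie on chromosome 12.

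BMP genes went in both directions. Of 19 genes 5 were over 2-fold higher and 2 lower (median 0.12), beside 3.98% and 1.95% of all genes. The ligand gene Bmp4, which together with LIF maintains ESCs, had 11.41 in parental ESCs, 9.94 in heterologous cells, 10.52 in homologous cells and 10.57 and 10.60 after co-injection. Its target gene Id1 had 10.19, 8.80, 8.51, 9.51 and 9.31 in the same order. The antagonist gene Grem1 (gremlin) had 8.14 in parental and 11.12 in heterologous cells, with 9.18 in homologous cells and 7.70 and 7.94 after co-injection. Nbl1, another secreted antagonist, differed by 1.41 and the ligand gene Bmp2 by 1.18. The receptor gene Bmpr1b lay just past 2-fold, at 1.01.

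In the IGF system 7 of 14 genes were over 2-fold higher and 1 lower (median 1.10), beside 3.98% and 1.95% of all genes. Igf2, an imprinted fetal growth factor gene, had 9.13 in parental ESCs, 10.54 in homologous, 11.88 in heterologous and 10.48 and 10.42 in co-injection cells. Igf1 differed by 1.98 and the receptor gene Igf1r by 1.22. Of the binding proteins, Igfbp7 had 10.16 in parental and 12.63 in heterologous cells but 8.25 and 8.27 after co-injection, Igfbp5 differed by 2.02 and Igfbp3 by 1.39. Pappa, a proteinase that frees IGF from its binding proteins, differed by 2.55, whereas the serine proteinase gene Htra1 differed by -1.34 and was low in all cells from teratomas. Igf2bp1, an RNA-binding protein gene of ESCs, lay at -0.01.

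Wnt5a, a noncanonical ligand, was among the genes farthest above all other arrays. It had 7.42 in parental ESCs, 7.57 in homologous, 10.34 in heterologous and 6.96 and 6.73 in co-injection cells. Wls, whose product carries Wnt proteins to the cell surface, had 7.49 in parental and 10.85 in heterologous cells. Of 23 Wnt ligands, receptors and antagonists 7 were over 2-fold higher and 1 lower (median 0.36), beside 3.98% and 1.95% of all genes. The lower gene was Sfrp5 at -1.12. Among the higher ones were the receptor gene Fzd2 (2.04) and the antagonist genes Dkk2 (1.34) and Frzb (1.19). Among growth factor receptor kinases 6 of 24 were over 2-fold higher and 1, Erbb3 at -1.86, was lower (median 0.45). Nrp1, a receptor for semaphorins and VEGF, differed by 2.93 and Fgf7, a stromal factor that acts on epithelium, by 2.24, and of 23 secreted growth factor and co-receptor genes 6 were over 2-fold higher and none lower.

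Transcription factors of mesenchyme were higher in part. Of 45 genes 14 were over 2-fold higher and 1, Osr2 at -1.08, was lower (median 0.46), beside 3.98% and 1.95% of all genes. Prrx1, a homeobox gene of limb and craniofacial mesenchyme, had 7.86 in parental ESCs, 8.83 in homologous, 10.65 in heterologous and 6.95 and 6.64 in co-injection cells. Meis2, a cofactor of Hox proteins, had 8.19, 7.79, 10.70, 7.53 and 7.51 in the same order. Snai2 (2.68) and Zeb2 (2.49), repressors of E-cadherin, were higher with Ebf1 (2.36), Runx1 (2.34), Osr1 (2.33) and Twist2 (1.71). Of Snai1, Zeb1 and Twist1, further factors of the transition from epithelium to mesenchyme, none passed 2-fold.

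Cadherins and guidance molecules were higher with them. Of 22 cadherin and adhesion genes 10 were over 2-fold higher and none lower (median 0.61), with Cdh11, the cadherin of mesenchyme, at 11.59 against 9.22 in parental ESCs and 7.34 and 7.31 after co-injection, and with the neural cadherin gene Cdh2 at 2.30. Of 32 guidance genes 14 were over 2-fold higher and none lower (median 0.47), beside 3.98% and 1.95% of all genes. Sema6a differed by 2.98, but it was higher still in the other 3 arrays of cells from teratomas, at 10.78 to 11.13 against 10.58, whereas Sema3c (2.51) and Sema3a (2.17) were highest in heterologous cells.

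Genes of neural progenitors were higher in part, and 9 of the 15 measured had their highest value in the heterologous array. Of 15 genes 6 were over 2-fold higher and none lower, beside 3.98% and 1.95% of all genes. Their median was 0.79, against 0.52 in homologous cells and 0.35 in the co-injection mean. Fabp7, a fatty acid binding protein of radial glia, had 6.99 in parental ESCs and 11.64 in heterologous cells, the largest difference of all genes. Its values were 9.32 in homologous cells, 2.33 above parental ESCs, and 7.92 and 8.05 in co-injection cells. Fabp7 was the only gene over 2-fold different of 9 fatty acid binding protein genes. The intermediate filament gene Nes (nestin) differed by 2.52, Pax6 by 1.53, the stem cell surface gene Prom1 by 1.49 and Zic1 by 1.27, while Hes5, Neurog2 and Gfap lay at -0.07, -0.22 and -0.12. None of 13 neuronal genes was over 2-fold different, with Tubb3 at -0.44.

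Inflammatory mediators made by stromal cells were higher in a minority. Of 28 genes 7 were over 2-fold higher and none lower (median 0.08), beside 3.98% and 1.95% of all genes. Il33, an alarmin of the interleukin 1 family, had 6.07 in parental ESCs, 6.66 in homologous, 9.64 in heterologous and 6.84 and 6.78 in co-injection cells. The monocyte chemoattractant genes Ccl7 and Ccl2 differed by 2.47 and 2.21, and for both the co-injection values lay below those of parental ESCs. B2m, the light chain of MHC class I, had 9.84 in parental ESCs and 11.99 in heterologous cells, with 11.15, 10.57 and 10.64 in the other arrays, and it was the only gene over 2-fold different of 15 genes of class I presentation. Of 24 interferon response genes 1 was over 2-fold higher and 4 were over 2-fold lower, with the GTPase gene Irgm1 at 1.27, Xaf1 at -1.72 and Oas2 at -1.55. Both of the latter were low in every array of cells from teratomas.

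The 15 genes whose heterologous value lay farthest below the other 4 arrays were Elf3, Rbm47, Rab25, Lad1, Liph, Arhgap8, Otx2, Lrrc34, AU015836, Phf11d, Dnajc6, Mreg, Slco4c1, Triml2 and Gmfg. Elf3, Rbm47, Rab25, Lad1 and Liph are described as genes of epithelia, a grouping made after the values were seen. Elf3, an epithelial ETS factor, had 10.42 in parental ESCs, 9.74 in homologous, 8.08 in heterologous and 9.61 and 9.73 in co-injection cells, 5.05-fold below parental ESCs. Rbm47, a splicing factor of epithelia, had 9.65, 9.78, 7.72, 9.61 and 9.82 in the same order, and Rab25, a GTPase of apical recycling, had 9.30, 10.09, 7.79, 9.55 and 9.42. For each of these 3 the heterologous array was over 2-fold below the lowest other array, while the other 4 spread over less than 2-fold. Lad1 (ladinin), a basement membrane anchor, differed by -1.38 and Liph, a phospholipase, by -1.17.

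**Figure D3:**
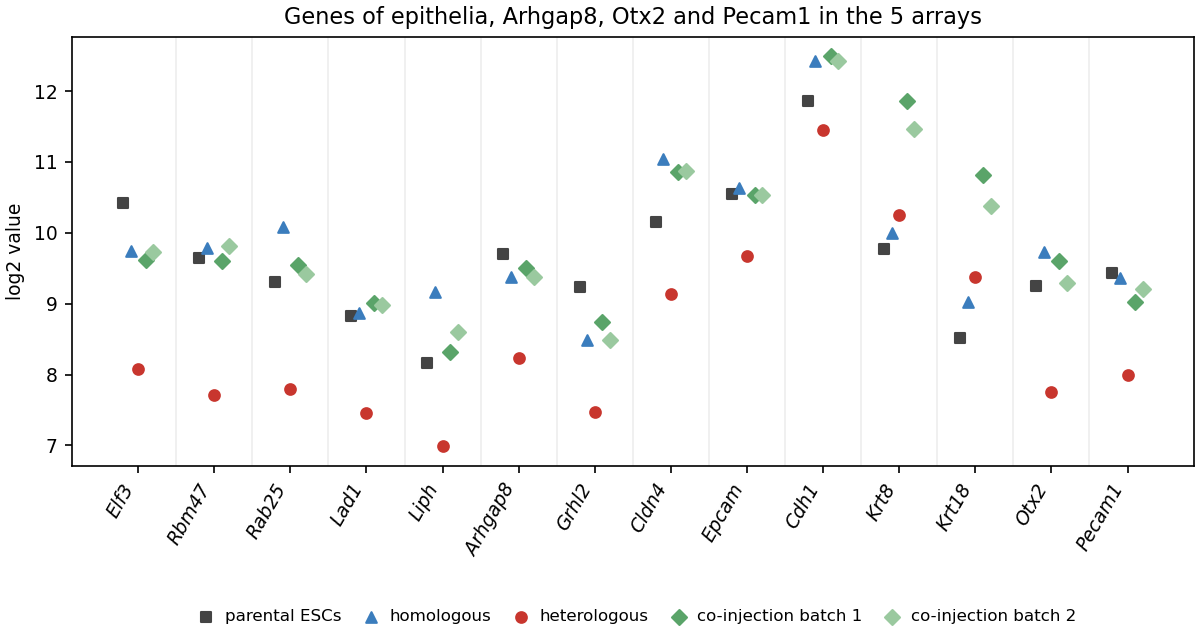
The log2 values of 11 genes of epithelia and of Arhgap8, Otx2 and Pecam1 are shown in each of the 5 arrays, 1 point an array and no error bar. Elf3, Rbm47, Rab25, Lad1, Liph, Arhgap8 and Otx2 were drawn from the genes farthest below all other arrays, so their low values follow from the choice. The heterologous array is the lowest of the 5 for Elf3 to Cdh1, Otx2 and Pecam1, at 7.72 for Rbm47 against 9.61 to 9.82 elsewhere, but not for the keratin genes Krt8 and Krt18.

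In the list of keratinocyte and simple epithelium genes 2 of 17 were over 2-fold lower and none higher. Of all genes 1.95% were lower and 3.98% higher. The list had a median of -0.37. The homologous array had a median of 0.24 here and the co-injection mean 0.69. Grhl2, a master regulator of epithelial junctions, had 9.24 in parental ESCs, 8.49 in homologous, 7.47 in heterologous and 8.74 and 8.49 in co-injection cells. The claudin gene Cldn4 differed by -1.01, Epcam by -0.88 and Cdh1, which encodes E-cadherin, by -0.40. Cdh1 had 11.85 in parental and 11.46 in heterologous cells, whereas it was 12.42 in homologous cells and 12.49 and 12.43 after co-injection. Krt8 and Krt18 differed by 0.49 and 0.86 and were thus on the other side of parental ESCs. The summed linear level of the list was 9350 in the heterologous array, 11906 in parental ESCs and 17415 to 21449 in the other 3.

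Markers of most other differentiated cells were not over 2-fold different. Of 12 lymphocyte, 5 erythroid, 14 skeletal muscle, 11 cardiac muscle, 10 cartilage and bone, and 10 adipocyte genes, none passed 2-fold in either direction. Such short lists would hold few at the shares over all genes, 3.98% higher and 1.95% lower. Dim in both arrays, below the median value, were 11, 2, 8, 5, 5 and 6 of them in that order. Another 6 erythroid entries matched no gene. These counts therefore do not show whether such cells were present. Of 14 endothelial genes 1, Robo4 at -1.48, was lower, and the VEGF receptor gene Kdr lay at -0.17. Of 15 macrophage genes Lyz2 (lysozyme) was higher at 1.16 and Fcgr3 lower at -1.08, with Ptprc (CD45) at -0.25 and Adgre1, a macrophage surface receptor gene, at 0.07. The summed linear level of the macrophage genes was 2033 in heterologous and 2425 in parental cells. Among 12 endoderm genes Dab2 was higher at 3.09 and Sox7 lower at -1.85, and Afp (alpha-fetoprotein) lay at -0.04. A second, dim probe set of Dab2 differed by -0.10.

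Some serine protease genes of chromosome 14 were higher as well. Gzme, a granzyme, had 5.84 in parental ESCs, 7.18 in homologous, 9.31 in heterologous and 5.19 and 6.09 in co-injection cells, and Mcpt8, a mast cell and basophil protease gene, had 6.01, 6.18, 8.68, 5.98 and 6.14. Gzmd differed by 2.11. These 3 were the only ones over 2-fold different of 13 granzyme, mast cell protease, cathepsin G and chymase genes of that cluster. Of all genes 3.98% were over 2-fold higher and 1.95% lower. The group was chosen after the values of Gzme and Mcpt8 were seen, so its count is no result of its own. Of the 13 genes 11 were below the median of all values in both parental and heterologous cells. Gzmb and Gzma, the granzymes of cytotoxic lymphocytes, lay at -0.09 and 0.00. Members of this family are similar in sequence, so the values of single granzyme genes are uncertain.

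Hairpin probe sets named the primary or precursor transcripts of miRNAs. Of 300 genes named Mir and a number, 4 of which are host transcripts, 41 were over 2-fold higher and 1, Mir142, was lower. These counts stand beside 3.98% and 1.95% of all genes, and the median of the 300 was 0.00. Of the higher ones 31 lay on chromosome 12 and 5 on chromosome 3. Most of these probe sets are dim: 226 of the 300 were below the median of all values in both parental and heterologous cells.

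The 5 genes on chromosome 3 are the Mir302 cluster with Mir367, which is known for its expression in pluripotent cells. The mature sequences below are shown for their seeds, the stretch that pairs with target mRNAs, which only some members share. They are RefSeq entries of build GRCm38.p6 written 5′ to 3′, with bases 2 to 8 in capitals.
miR-302b-3p: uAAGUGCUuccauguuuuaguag
miR-302d-3p: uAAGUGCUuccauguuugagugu
miR-302c-3p: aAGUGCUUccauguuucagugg
miR-367-3p: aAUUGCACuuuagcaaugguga
miR-302b-3p and miR-302d-3p have the seed AAGUGCU, and miR-302c-3p holds the same 7 letters beginning 1 base earlier, so its own bases 2 to 8 read AGUGCUU. miR-367-3p, with AUUGCAC, belongs to another seed family. The cluster spans 580 bases at chr3:127545228-127545807, on the forward strand and within the interval of Larp7, chr3:127536714-127553349.

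All 5 genes of this cluster were over 2-fold higher in heterologous cells than in every other array. Mir302b had 4.22 in parental ESCs, 4.27 in homologous, 7.01 in heterologous and 4.03 and 4.03 in co-injection cells, a difference of 2.79 from parental ESCs. Mir302d had 5.26, 5.08, 7.27, 5.07 and 5.01 in the same order, and Mir302c, at 5.03 in parental and homologous cells and 5.02 and 4.95 after co-injection, differed by 1.97. Across the cluster the other 4 arrays lay between 3.73 and 5.26 and the heterologous array between 5.49 and 7.27. All these values are dim, below the median of all values, 7.49. Mir302a differed by 1.93 and Mir367 by 1.56, while Larp7 itself, at 10.90 in heterologous cells, differed by -0.11. The cluster was singled out after its values were seen, and the arrays do not measure the mature miRNAs.

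**Figure D4:**
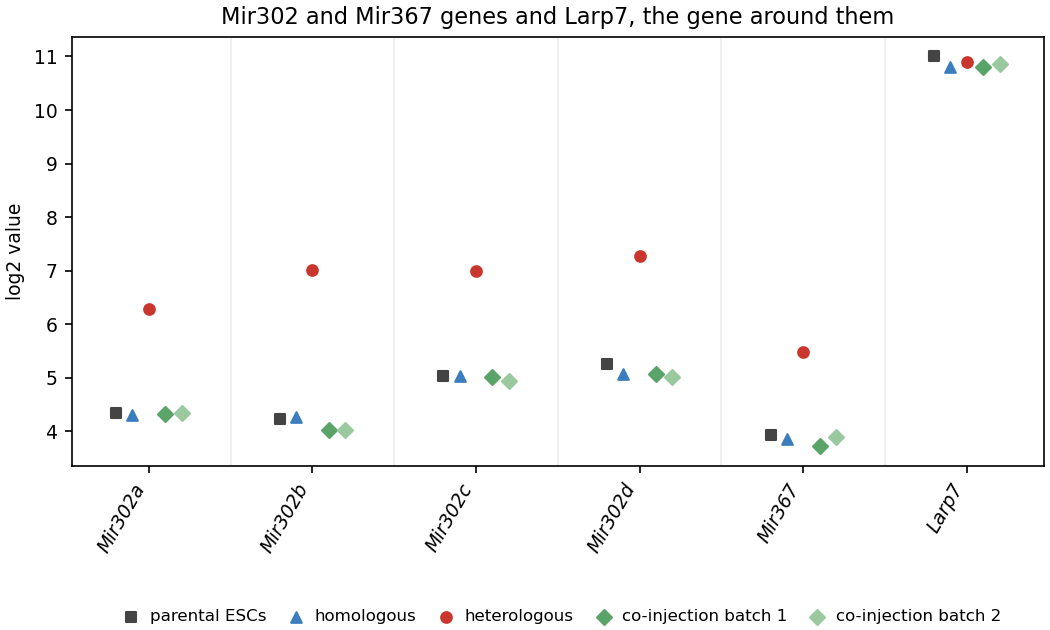
The log2 values of the 4 Mir302 genes, of Mir367 and of Larp7, the gene around them, are shown in each of the 5 arrays, 1 point an array and no error bar. The heterologous array lies between 5.49 and 7.27 for the 5 miRNA genes and every other array between 3.73 and 5.26, while the values of Larp7 lie together, at 10.90 in heterologous cells.

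On chromosome 12, 31 of 47 miRNA genes were over 2-fold higher, with a median of 1.35, against 0.55 in homologous cells and 0.17 in the co-injection mean. All 31 lie between Dlk1 and Dio3 in the imprinted region named for these genes, from which Rian (1.76), Dlk1 (1.38) and Meg3 (1.27) were higher as well. Mir380 had 6.08 in parental ESCs, 8.03 in homologous, 9.16 in heterologous and 7.48 and 6.47 in co-injection cells. The co-injection pair itself lay 1.01 apart for this gene, the widest gap among all genes over 2-fold different between heterologous and parental cells. Elsewhere in the genome Mir100hg differed by 1.78 and Mir125b-1, which lies in it, by 1.02. Of 27 imprinted genes 7 were over 2-fold higher and none lower (median 0.30), beside 3.98% and 1.95% of all genes.

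Genes lowest in heterologous cells were in large part low in all cells from teratomas. The X-linked deubiquitinase gene Usp26 had 9.51 in parental ESCs and 5.76, 5.70, 5.80 and 5.98 in homologous, heterologous and the co-injection cells, the largest negative difference of all genes at -3.81. The X-linked Nxf3 and Pnma5 differed by -3.67 and -3.34. Of the lowest autosomal genes, the olfactory receptor gene Olfr153 (-3.14), the citrate transporter gene Slc13a5 (-2.84) and Pramel7 (-2.51), a preimplantation gene, were about as low in the other cells from teratomas. Cyp2s1 (-2.80) was close to them, at 7.63 against 8.20 to 8.22.

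Meiotic and germ line genes made up a part of these. Of 15 germ cell genes 6 were over 2-fold lower and none higher, beside 1.95% and 3.98% of all genes. The median was -0.36, and the homologous array and the co-injection mean had 7 and 5 over 2-fold lower. Sycp1, of the synaptonemal complex, had 8.54 in parental ESCs and 5.96, 6.46, 6.46 and 6.41 in homologous, heterologous and co-injection cells, and Dazl, an RNA-binding protein of germ cells, had 9.41 and 7.23, 7.38, 7.13 and 7.25. For both the 4 cell populations from teratomas lay together below parental ESCs. Smc1b (-2.54), a meiotic cohesin, and Hormad2 (-2.44), of the meiotic chromosome axis, were outside the list. Lrrc34 and Morc1 were unlike these, with heterologous values of 6.88 and 7.82 that lay 1.44 and 1.12 below the lowest of the other arrays.

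Counts for lists of growth and metabolism stand beside 3.98% of all genes over 2-fold higher and 1.95% lower. Of 31 cell cycle genes 1, Ccnd2 (cyclin D2), was over 2-fold higher, at 11.92 against 9.75 in parental ESCs, 10.10 in homologous and 9.06 and 9.16 in co-injection cells, and the list had a median of -0.18. None of 27 respiratory chain, 21 cholesterol and fatty acid synthesis or 21 chromatin regulator genes passed 2-fold, with medians of -0.08, 0.06 and -0.19. Of 20 amino acid transporter genes 1 passed 2-fold, the X-linked glutamine transporter gene Slc38a5 at -2.97, and the median was -0.07. Of 12 DNA methylation genes Dnmt3a was higher (1.43) and Tet2 (-1.05) and Apobec2 (-1.17) were lower. Of 23 genes of glycolysis and hypoxia 1, Adm (adrenomedullin, 1.29), was higher, and Ndrg1 (-1.38) and the phosphofructokinase gene Pfkp (-1.35) were lower. Of 22 growth arrest and p53 target genes Plk2 (1.58) and Cdkn2b (1.26) were higher and Sesn1 (-1.17) was lower, and among 9 housekeeping genes B2m was the 1 over 2-fold different.

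**Figure D5:**
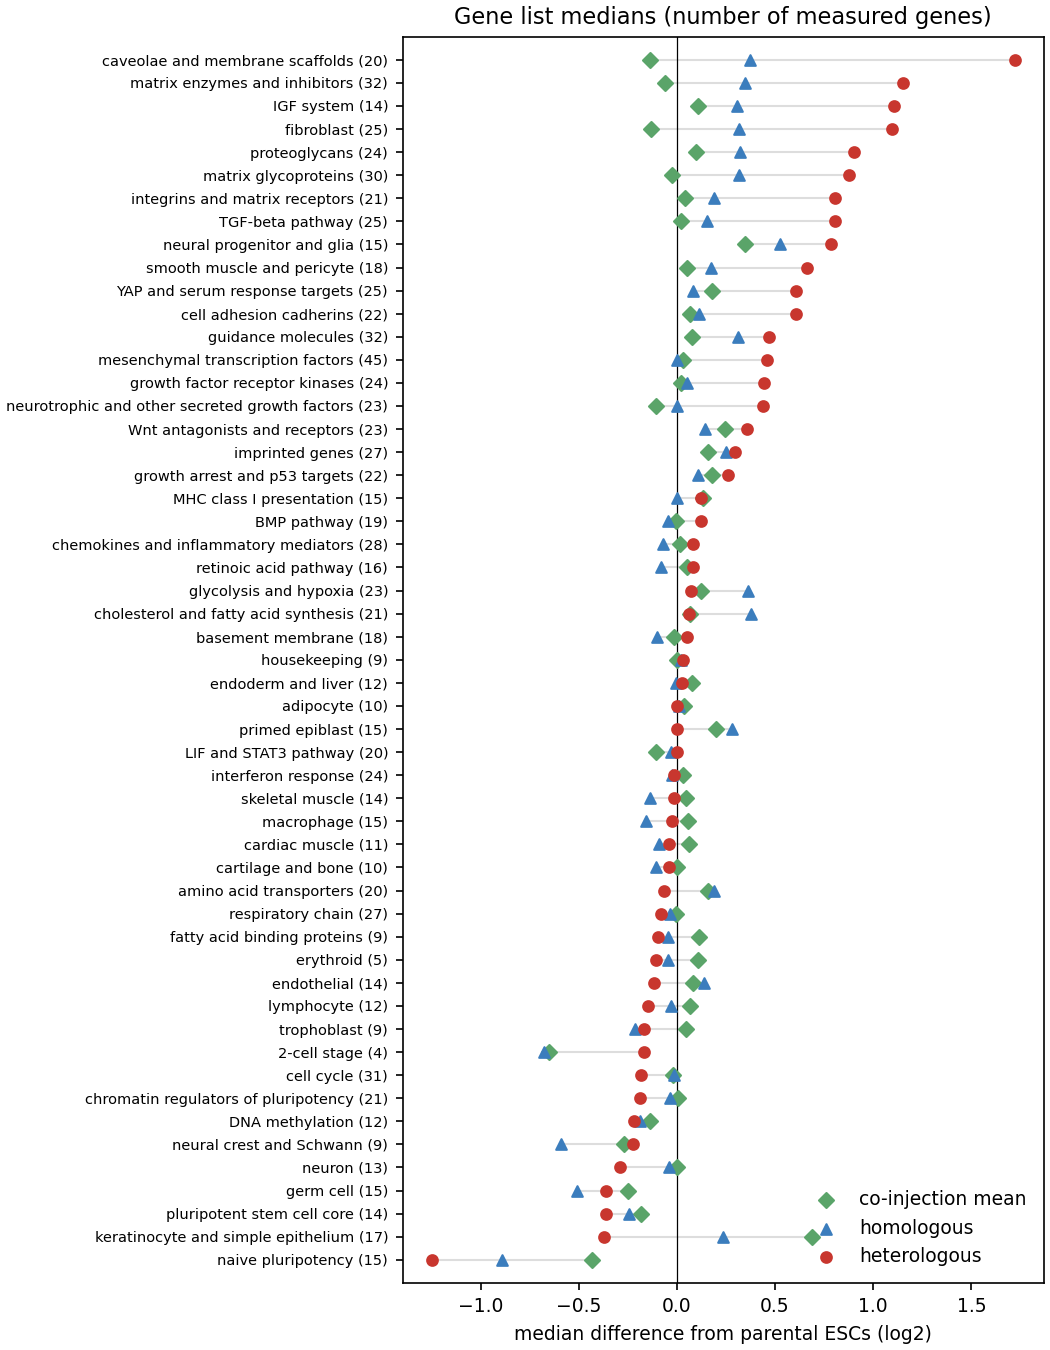
The median log2 difference from parental ESCs is shown for each of the 53 gene lists, with the number of measured genes in brackets, for the heterologous array, the homologous array and the mean of the co-injection pair, all against the same parental array. Heterologous medians run from -1.25 for naive pluripotency to 1.72 for caveolae and membrane scaffolds, and 12 of the 53 lie above 0.5, against 1 for each other comparison.

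Among the 53 lists, 12 had a heterologous median above 0.5 and 1 below -0.5. Genes of 2 chromosomes were shifted as groups, counted over genes above the median value. On chromosome 12 the median difference of 421 genes was 0.24 and 14.5% were over 2-fold higher, and on the X chromosome the median of 359 genes was -0.47 and 10.6% were over 2-fold lower. The other 18 autosomes had medians between -0.08 and 0.04, with 2.81% to 7.8% of genes over 2-fold higher and 0.993% to 3.63% lower. The part of these shifts in the values of Itgb8, Tgfb3 and other genes of chromosome 12 was not tested. Of the 794 higher genes 85 (10.7%) lie on chromosome 12, against 3.27% of all genes. Of the 389 lower genes 59 (15.2%) are X-linked, against 3.71% of all genes.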

How the data were processed

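RNA of 5 cell populations (parental ESCs, homologous, heterologous and, as 2 batches, co-injection) was hybridized to Affymetrix Mouse Gene 1.0 ST arrays. The authors read intensities in GCOS, summarized them by RMA, quantile normalized the arrays and deposited log2 values for 35556 probe sets per array. Tool versions: not given in the sources used here. Quantile normalization gives all arrays nearly the same distribution, so a shift common to most genes would not show.

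Gene names came from GEO's annotation of the platform, in which 21789 probe sets had 1 symbol, 1621 several and 12146 none. Genes were matched to GRCm38.p6 by Entrez ID, and 83 had no chromosome there. The brightest probe set stood for a gene. Samples were grouped by their labels. Differences over 1 (2-fold, the rule of the study's methods) were counted. With 1 array a side no test was made, and the number of arrays limits the precision. The members and the 53 gene lists, in which 994 of 1091 entries matched a gene, were chosen with earlier results of these data known.

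Genes were named from the 25 largest differences each way, the 15 lowest autosomal genes and the 15 farthest above and below all other arrays. Further sources were the 4 highest, 3 lowest and all members over 2-fold of each list. Genes the study names and miRNA genes over 2-fold were also drawn on. Not every gene of these groups is named, Dynap, Gria3, Cyp1b1 and Klf8 being examples of those left out. Other genes named (Xist, Larp7, further members of lists and of the chromosome 14 proteases) were picked with their values in view. Other settings tried were thresholds (1.5 and 3), a filter on dim genes, other probe set choices, cyclic loess, centred arrays, other reference arrays, leaving out chromosomes, and each co-injection array left out. The counting rule was tested on simulated data. Python 3.11.15, numpy 2.4.6, pandas 2.3.3, matplotlib 3.10.9, R 4.3.3 and limma 3.58.1 were used.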

Additional observations from a re-analysis of the deposited data

Results flagged for a closer look

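The cyclooxygenase gene Ptgs2 lay over 2-fold above parental ESCs in the heterologous array (1.49) and over 2-fold below them in the homologous array (-1.04), with values of 10.36, 11.85 and 9.32 in parental, heterologous and homologous cells. Srgn, the proteoglycan serglycin of secretory granules, did the same, at 1.43 and -1.65. The lipase gene Liph went the opposite way, at -1.17 and 1.01. These 3 were the only genes over 2-fold in opposite directions in the 2 comparisons, which share the parental array. The difference between the comparisons was not tested.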

How the results depend on the processing

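With 1 array a side, no setting gives a replicate check of a difference, and 342 of the 794 higher genes were below the median of all values in parental ESCs, with no measure of background used here. Counting 1.5-fold gave 1571 higher and 1056 lower genes, and 3-fold 319 and 126. Against the homologous array 481 genes were higher and 129 lower. Fewer genes were lower against the co-injection mean (72) and against the mean of the other 4 arrays (91).

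The list medians that follow kept their sign. Among genes above the median value they were 1.03 for matrix enzymes, 0.75 for the IGF system and 1.53 for caveolae. After cyclic loess they were 1.15 for fibroblasts, -0.32 for epithelium, 0.85 for TGF-beta, 1.15 for the IGF system and 2.03 for the Mir302 cluster. Against the homologous array they were -0.46 for naive pluripotency, -0.65 for epithelium, 0.93 for matrix enzymes, 0.68 for TGF-beta, 0.56 for the IGF system and 1.22 for caveolae. Against the co-injection mean they were -0.66 for naive pluripotency, 1.33 for fibroblasts, -1.002 for epithelium, 0.49 for TGF-beta, 0.65 for the IGF system and 2.01 for the Mir302 cluster. Against the mean of the other 4 arrays they were -0.73, 1.19, -0.66, 0.52 and 0.59 for naive pluripotency, fibroblasts, epithelium, TGF-beta and the IGF system. Without genes of the X chromosome and chromosome 12 the TGF-beta median was 0.66.

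The sign of single genes turned mostly with the reference array. Against the homologous array the difference was 0.72 for Tbx3, 0.45 for Foxd3, 0.12 for Lama1, 0.47 for Lgals3, 0.29 for Id1, 0.79 for Htra1, 0.18 for Sfrp5, 0.20 for Osr2, -0.19 for Sema6a, -0.40 for Prom1, 0.26 for Xaf1, 0.17 for Robo4, 0.27 for Fcgr3, 0.38 for Sox7, 0.0066 for Nxf3, 0.21 for Slc38a5, 0.50 for Sycp1 and 0.15 for Dazl. Against the co-injection mean it was 0.28 for Lgals3, 0.61 for Htra1, -0.39 for Sema6a, 0.096 for Xaf1, 0.071 for Nxf3, 0.024 for Sycp1 and 0.19 for Dazl, and against the mean of the other 4 arrays 0.17 for Htra1. With the dimmest probe set Dab2 was at -0.10. Leaving out either co-injection array left 794 higher and 389 lower genes and did not change the list medians of heterologous minus parental values. The co-injection arrays enter that comparison only through the choice of probe set. They enter the medians against the co-injection mean and the mean of the other 4 arrays directly, and those were not recomputed. Co-injection medians against parental ESCs moved beyond the median spread of the pair for 3 lists without batch 1 and for 2 without batch 2. No paired analysis was possible because parental and heterologous cells had 1 array each.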
